A study of Mus musculus with 28 samples.

Results

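Klf2, Klf3, Klf4, Klf5 and Klf6 encode Kruppel-like factors, and they were followed across every library of a time course in mouse embryonic stem cells. The 5 genes were taken by symbol, and all 5 were found among the 30386 genes of the deposited expression table. Cells of the E14 line were grown on gelatin in N2B27 medium with 2iL, which combines CHIR99021 (3 uM, an inhibitor of the kinase GSK3), PD0325901 (1 uM, an inhibitor of the kinase MEK) and the cytokine LIF. RNA was measured by 3′ digital gene expression sequencing, which counts reads from the ends of polyadenylated transcripts. The 7 groups, with 4 libraries each, were cells kept in 2iL, cells without 2iL for 24, 48, 96 or 120 h, and cells without 2iL for 48 or 96 h that then had it back for 24 h. The last 2 groups are called 48 h + 2iL and 96 h + 2iL. All 28 libraries came from the same line with no altered allele named, and all cells had been in 2iL at the start. The 120 h group is taken as its sample labels and the design text give it, although the protocol text lists collection times up to 96 h. By those labels the 96 h + 2iL cells reached the same total time as the 120 h cells, whereas no group matched the total time of the 48 h + 2iL cells. The libraries came from 4 numbered experiments, each with 1 library of every group. Separate cultures are not named, so p-values measure only the spread between these libraries, which may be partly technical.

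Kruppel-like factors bind GC-rich and CACCC-type DNA through zinc fingers at the end of the protein. In naive embryonic stem cells, Klf2, Klf4 and Klf5 act together in the network that holds the cells in the ground state, and they can stand in for each other in part. Klf4 is a known target of LIF and STAT3 signalling and a reprogramming factor, Klf2 protein is destabilised when ERK signalling is active, and Klf5 is needed in the early embryo. Klf3 mostly represses its targets by recruiting the corepressor CtBP, and Klf6 is a broadly expressed activator.

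In GENCODE M21 on GRCm38, Klf2 (ENSMUSG00000055148) lies on chromosome 8 from 72319033 to 72321656 on the forward strand. Klf3 (ENSMUSG00000029178) lies on chromosome 5 from 64803388 to 64832901 on the forward strand, and Klf4 (ENSMUSG00000003032) on chromosome 4 from 55527143 to 55532466 on the reverse strand. Klf5 (ENSMUSG00000005148) lies on chromosome 14 from 99298691 to 99315036, and Klf6 (ENSMUSG00000000078) on chromosome 13 from 5861482 to 5870394, both on the forward strand. All 5 are protein-coding, and the values here are counts summed over each gene. Exons of Klf3 overlap those of Gm20033 on the other strand. Strand-specific counting is not stated in the sources used here, so reads from that gene cannot be told apart from Klf3 reads.

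Promoter windows were available for 4 of the 5 genes (RefSeq, GRCm38.p6). They are printed because Klf2 and Klf4, which moved together, can then be set beside Klf3, which followed them in part, and Klf6, which did not. Each is written 5′ to 3′ on the strand of the gene. Each starts 250 bases before the RefSeq start and ends before the start of the gene in RefSeq or GENCODE, whichever comes first. Capitals mark every match to the GC box GGGCGG, a motif that SP and Kruppel-like factors bind, on either strand. The windows are chr8:72318812-72319032 (+) for Klf2, chr4:55532476-55532725 (−) for Klf4, chr5:64803271-64803387 (+) for Klf3 and chr13:5861239-5861481 (+) for Klf6.
Klf2: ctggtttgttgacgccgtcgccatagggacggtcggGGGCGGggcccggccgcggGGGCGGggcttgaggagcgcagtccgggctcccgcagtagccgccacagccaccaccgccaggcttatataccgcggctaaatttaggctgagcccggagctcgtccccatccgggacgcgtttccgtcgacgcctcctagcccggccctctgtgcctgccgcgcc
Klf4: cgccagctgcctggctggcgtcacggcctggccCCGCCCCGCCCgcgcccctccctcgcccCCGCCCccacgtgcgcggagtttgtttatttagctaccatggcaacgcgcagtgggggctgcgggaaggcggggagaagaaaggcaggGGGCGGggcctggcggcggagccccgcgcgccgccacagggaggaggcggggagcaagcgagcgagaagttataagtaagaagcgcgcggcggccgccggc
Klf3: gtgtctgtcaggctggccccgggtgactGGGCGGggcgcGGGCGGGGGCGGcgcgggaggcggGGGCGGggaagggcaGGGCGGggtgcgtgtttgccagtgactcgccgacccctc
Klf6: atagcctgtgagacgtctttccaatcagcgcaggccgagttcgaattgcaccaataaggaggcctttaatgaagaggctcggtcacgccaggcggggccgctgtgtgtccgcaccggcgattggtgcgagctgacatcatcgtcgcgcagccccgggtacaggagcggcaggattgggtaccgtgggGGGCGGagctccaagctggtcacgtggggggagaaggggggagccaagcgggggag

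Over the full 250 bases Klf3 held 6 GC boxes, Klf4 4, Klf2 2 and Klf6 1, matches that overlap or touch each other included. Of 32851 windows of that length 32.7% held at least 1 GC box, 16.7% held at least 2, 4.09% at least 4 and 0.886% at least 6. The CACCC box, searched as CACCC on both strands, was found 5 times for Klf3 and 1 time for Klf2, and 52% of all windows held at least 1. The CACCC boxes of Klf3 at 120, 111 and 48 bases before the RefSeq start lie past its GENCODE start. So do the CACCC box of Klf2 at 19 bases and the GC box of Klf3 at 89 bases. None of these is in the printed stretches. A STAT motif (TTCNNNGAA) and a TCF/LEF motif (CTTTGAT), both searched on both strands, had no match in the 4 windows, and 7.02% and 3.21% of all windows held them. The GC content was 71.2% for Klf2, 74% for Klf4, 78.4% for Klf3 and 64.8% for Klf6, against a median of 52.4% over all windows. The motif counts therefore did not sort the 4 genes by the way their levels moved.

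The libraries held 1554830 to 2828694 gene counts each, and the 5 genes had 15 to 2233 counts per library. Levels below are CPM, counts scaled to the same library total, after TMM adjustment of the library sizes, and they compare libraries for 1 gene, not genes with each other. The 6 stem cell markers fixed for this work, Pou5f1 and Sox2 among them, were all detected in every group. They summed to 1038 to 1333 CPM in 2iL, 1537 to 1652 CPM at 24 h and 489.4 to 704.4 CPM at 120 h. Utf1 had means of 63.36 CPM in 2iL, 534.3 CPM at 48 h and 82.29 CPM at 120 h. Sall4 had means of 222.3 CPM in 2iL and 216.6 CPM at 120 h, and the other markers were lower at 120 h. The series carries no targeted gene to check. The 6 neural progenitor markers summed to 13.53 to 24.04 CPM in 2iL, where Zic1 was at 0, and to 219 to 625.5 CPM at 120 h with all 6 detected. The 7 fibroblast markers all had at least 1 count in every group. They summed to 163.8 to 339.3 CPM in 2iL, 161.7 to 329.2 CPM at 96 h and 133.1 to 433.5 CPM at 120 h. Col1a1 and Col1a2 made up most of that sum in 2iL, at means of 70.3 and 133.1 CPM. Lum had 7 counts over the 4 libraries in 2iL and 1 each at 24 h and in 48 h + 2iL. The 4 endothelium markers, all detected, summed to 51.52 to 77.22 CPM in 2iL and 8.942 to 19.77 CPM at 120 h. Most of that sum in 2iL was Pecam1 (52.97 CPM in 2iL and 3.844 CPM at 120 h), while Kdr stood at 3.808 and 8.057 CPM and Cdh5 at 0.142 and 0.3165 CPM. The 7 trophoblast markers summed to 85 to 155.6 CPM in 2iL with Elf5 at 0 and to 51.79 to 91.54 CPM at 120 h. In 96 h + 2iL they summed to 54.02 to 264.9 CPM. From 2iL to 120 h the mean of Tfap2c went from 91.65 to 9.324 CPM and that of Krt8 from 7.986 to 7.122 CPM. The means of Krt18 (1.733 and 27.29 CPM), Eomes (4.35 and 16.07 CPM) and Cdx2 (13.36 and 18.09 CPM) were higher at 120 h. Cdx2 reached a mean of 96.01 CPM in 96 h + 2iL. The 7 primitive endoderm markers summed to at most 25 CPM in any library. The part of any such cells in the levels below was not tested. In bulk RNA fewer cells of a type and less RNA per cell cannot be told apart. The 96 h + 2iL library of experiment 3 stood apart, with low Klf2, Klf4, Klf5 and Klf6 and with a neural marker sum of 794.8 CPM against 160.9 to 461.2 CPM in the other 3 libraries of that group. Experiment 3 also had the highest neural sum before the return at 96 h (292.2 CPM against 82.06 to 134.9 CPM) and at 120 h (625.5 CPM against 219 to 421.5 CPM). At 96 h it was the lowest in Klf2, Klf5 and Klf6 (19.19, 45.35 and 140 CPM) but the highest in Klf4 (18.75 CPM).

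**Figure D1:**
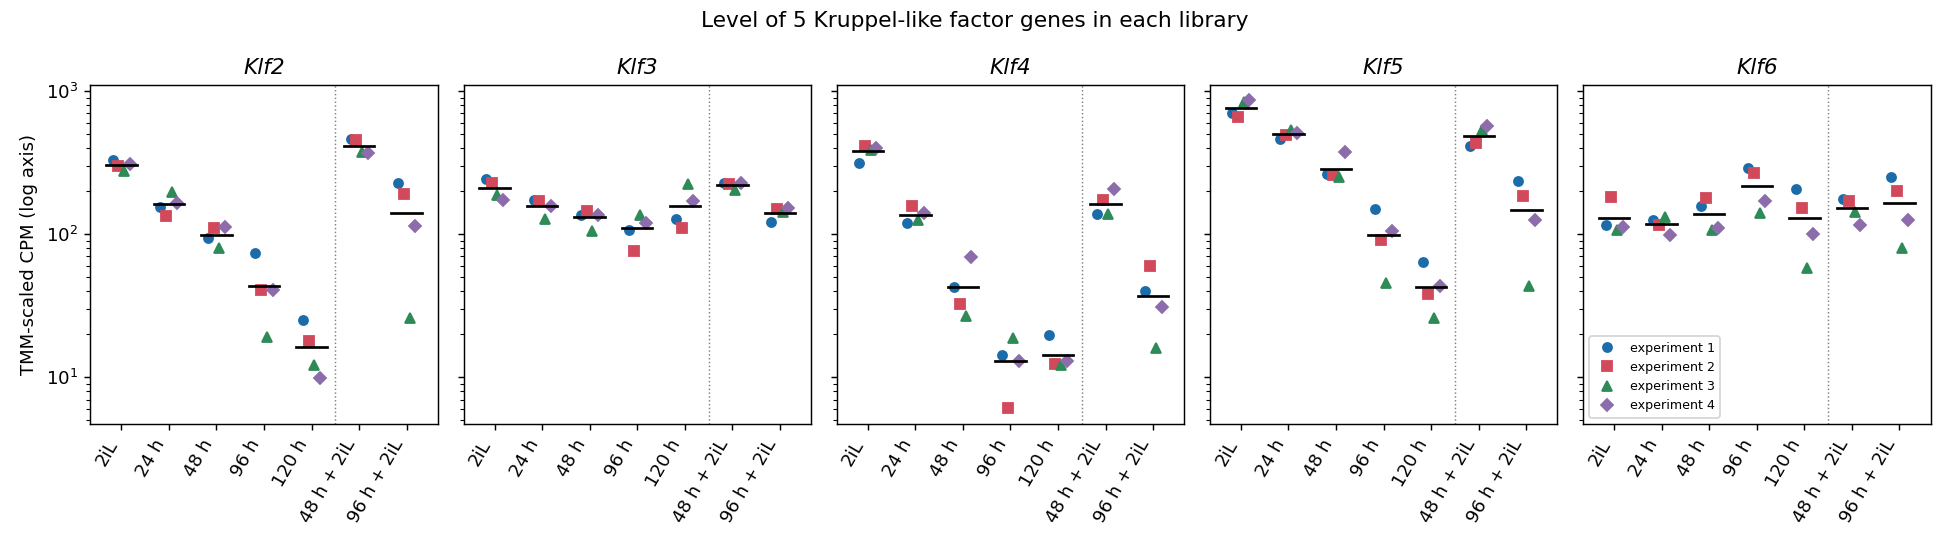
Each point is the TMM-scaled CPM (log axis) of 1 gene in 1 library, by group on the horizontal axis and by experiment in colour and shape, and the black bar is the mean of the 4 libraries. Klf2, Klf4 and Klf5 run down from 2iL to 96 h and partly or fully back up after 2iL was returned, Klf3 moves within a narrower range, and Klf6 has its highest mean, 218 CPM, at 96 h.

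The comparison of each time without 2iL with 2iL asks how long the naive level of each factor lasted. Klf4 was the member with the largest drop at 24, 48 and 96 h, and by 120 h Klf2, Klf4 and Klf5 stood at 3.007% to 9.088% of the 2iL library of the same experiment. Klf3 fell by less, and Klf6 was not called lower at any time. A large fall without 2iL was thus seen for Klf2, Klf4 and Klf5, a smaller one for Klf3, and none was called for Klf6. The members were chosen with earlier results of these data known, so these falls do not test the label of naive factors. The 4 times share the same 2iL libraries, so the comparisons are not independent of each other.

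Klf4 stood at 316.9, 413.0, 385.1 and 403.7 CPM in 2iL in experiments 1 to 4. After 24 h it stood at 119.7, 157.4, 126.6 and 141.0 CPM, below every 2iL library. It fell by 1.48 ± 0.24 on the log2 scale (log2 fold change ± standard error, edgeR quasi-likelihood test, Benjamini-Hochberg adjusted p = 3.77e-05). Klf4 was the 1 member of 5 that fell at 24 h, where 8.29% of the 11080 tested genes fell and 7.68% rose. In each experiment it kept 32.88% to 38.12% of the 2iL level.

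Klf2 stood at 332.9, 301.8, 277.3 and 308.3 CPM in 2iL and at 155.6, 133.4, 195.9 and 165.9 CPM at 24 h. The libraries did not overlap and all 4 experiments were lower, yet the change of -0.91 ± 0.32 on the log2 scale missed the threshold (edgeR adjusted p = 0.0514). With the experiment as a block the edgeR adjusted p was 0.0193, with only these 2 groups in the fit it was 0.000122, and without experiment 3 it was 0.000601. Klf5 behaved alike in its libraries, with 701.9, 657.3, 839.0 and 862.5 CPM in 2iL and 466.1, 494.4, 534.9 and 510.8 CPM at 24 h. Its change was -0.61 ± 0.28 (edgeR adjusted p = 0.146), and it passed with only these 2 groups in the fit (edgeR adjusted p = 0.00165) and without experiment 3 (edgeR adjusted p = 0.0366).

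At 24 h Klf3 stood at 173.2, 170.2, 127.3 and 157.6 CPM against 244.4, 227.1, 189.4 and 174.3 CPM in 2iL. Those libraries did not overlap either, which makes 4 of 5 members lower with no overlap where 8.63% of tested genes were, but the change of -0.41 ± 0.17 did not pass (edgeR adjusted p = 0.101, or 0.0364 with no filter on low counts). Klf6 stood at 126.4, 115.5, 131.7 and 98.83 CPM against 116.9, 180.7, 107.8 and 111.9 CPM in 2iL. The 2 groups of Klf6 overlapped, and 2 experiments were higher and 2 lower.

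The changes were also compared between members within each library, as the ratio of their counts, with a two-sided exact permutation test of 4 libraries against 4. Over the 10 pairs of members and 6 comparisons, 60 tests were adjusted together, and the smallest p the design allows is 0.0286, which gave an adjusted p of 0.0476. All 36 of 60 tests that passed sat at that smallest p, so each call depends on how many other tests reached it. The tests share genes and libraries and are not independent, and libraries were permuted without pairing by experiment. At 24 h 3 of 10 pairs passed, all with Klf4: it dropped further than Klf3 by 1.07 ± 0.21, than Klf5 by 0.88 ± 0.15 and than Klf6 by 1.37 ± 0.23 (log2 ratio ± standard error, exact permutation adjusted p = 0.0476 each). Against Klf2 the difference of 0.56 ± 0.22 did not pass (exact permutation adjusted p = 0.0879).

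At 48 h 4 of the 5 members had fallen, Klf6 being the exception, where 13.2% of tested genes fell and 14.6% rose. Klf4 was down to 43.03, 32.59, 26.86 and 69.30 CPM, a change of -3.15 ± 0.27 (edgeR adjusted p = 7.22e-11). Klf2 stood at 93.84, 110.1, 79.97 and 112.2 CPM, a change of -1.62 ± 0.33 (edgeR adjusted p = 0.000318). All libraries of both genes lay below those at 24 h.

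Klf5 stood at 262.3, 259.7, 249.7 and 374.7 CPM at 48 h, a change from 2iL of -1.42 ± 0.29 (edgeR adjusted p = 0.00027). Klf3 stood at 137.4, 145.6, 106.2 and 135.5 CPM, a change of -0.67 ± 0.17 (edgeR adjusted p = 0.00315). The repressor gene Klf3 thus kept 56.09% to 77.75% of its 2iL level in the 4 experiments, against 6.974% to 17.17% for Klf4. Klf6 stood at 156.6, 179.7, 107.4 and 109.8 CPM and overlapped 2iL, with a change of 0.10 ± 0.29 (edgeR adjusted p = 0.843).

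Of the 10 pairs of members 9 differed in their change at 48 h by the exact permutation test. Klf4 dropped further than Klf5 by 1.80 ± 0.21 and further than Klf2 by 1.59 ± 0.27 (log2 ratios, exact permutation adjusted p = 0.0476 each). Klf2 and Klf5 were the pair whose change did not differ beyond the spread, at -0.20 ± 0.17 (exact permutation adjusted p = 0.297).

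At 96 h the same 4 members, Klf2, Klf3, Klf4 and Klf5, were called lower and Klf6 higher, where 19.2% of tested genes fell and 21.9% rose. Klf4 reached 14.22, 6.064, 18.75 and 12.98 CPM, a change of -4.87 ± 0.30 (edgeR adjusted p = 2.3e-14), and the library of experiment 2 was the lowest of all 28. Klf2 stood at 73.86, 40.83, 19.19 and 40.56 CPM, a change of -2.81 ± 0.35 (edgeR adjusted p = 8.61e-08). Klf5 stood at 150.9, 90.55, 45.35 and 105.8 CPM, a change of -2.96 ± 0.31 (edgeR adjusted p = 1.94e-09). In Klf2 and Klf5 experiment 1 was the highest and experiment 3 the lowest of the 4, and for Klf4 experiment 3 was the highest.

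Klf6 went the other way at 96 h, with 289.5, 269.6, 140.0 and 170.7 CPM. The rise over 2iL was 0.75 ± 0.29 (edgeR adjusted p = 0.0378), and it was seen in 4 of 4 experiments, between 0.37 and 1.30 on the log2 scale, although the 2iL library of experiment 2 (180.7 CPM) lay inside the 96 h range. The call was lost with DESeq2 (adjusted p = 0.0748) and without any of the 2iL libraries of experiments 1, 3 and 4 or the 96 h libraries of experiments 1 and 2 (edgeR adjusted p of 0.0884, 0.0979, 0.0979, 0.132 and 0.108). Klf3 stood at 106.4, 76.00, 136.9 and 119.6 CPM, a change of -0.93 ± 0.17 (edgeR adjusted p = 4.5e-05).

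At 120 h the median change of the 5 members was -4.14 on the log2 scale, beside a median of 0.01 over all tested genes, and 4 of 5 were called lower where 22.6% of tested genes fell and 24.6% rose. Klf2 stood at 24.99, 17.88, 12.16 and 9.823 CPM, a change of -4.21 ± 0.39 (edgeR adjusted p = 1.75e-10). Klf4 stood at 19.77, 12.42, 12.16 and 12.95 CPM, a change of -4.71 ± 0.29 (edgeR adjusted p = 3.59e-14). Klf5 stood at 63.79, 38.25, 26.12 and 43.76 CPM, a change of -4.14 ± 0.33 (edgeR adjusted p = 5.66e-12). No pair of these 3 genes passed the test of a difference in their change, with exact permutation adjusted p of 0.16 (Klf4 and Klf5), 0.21 (Klf2 and Klf4) and 0.888 (Klf2 and Klf5), while each dropped further than Klf3 and Klf6 (6 of 10 pairs, exact permutation adjusted p = 0.0476 each).

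Klf3 was higher at 120 h than at 96 h in all 4 experiments, at 128.7, 110.3, 224.3 and 169.7 CPM. Against 2iL the libraries overlapped, 3 experiments were lower and experiment 3 was higher, and the change of -0.40 ± 0.17 lay at the threshold (edgeR adjusted p = 0.04998). The call was lost with DESeq2 (adjusted p = 0.0735), with library totals (edgeR adjusted p = 0.221) and without any of the 2iL libraries of experiments 1, 2 and 3 or the 120 h libraries of experiments 1, 2 and 4 (edgeR adjusted p from 0.0582 to 0.213). Without all of experiment 3 it was -0.66 (edgeR adjusted p = 0.00126), more than 1.5 times as large. Scaling by library totals moved the median of all genes in this comparison by 0.12 on the log2 scale and the share of calls that were higher from 52.1% to 61.1%, and Klf2, Klf4 and Klf5 stayed lower under it.

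Klf6 stood at 207.4, 152.5, 58.54 and 100 CPM at 120 h, on both sides of 2iL. Its change was 0.01 ± 0.29 (edgeR adjusted p = 0.99), 1 experiment was higher and 3 were lower, and the sign turned with the experiment as a block. Between 96 h and 120 h Klf6 was lower in 4 of 4 experiments, by 0.48 to 1.24 on the log2 scale, and that step was called only in some of the fits described with the successive times.

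Successive times show when each gene moved. From 24 h to 48 h Klf4 was the 1 of 5 members called (-1.67 ± 0.26, edgeR adjusted p = 8.41e-05), where 3.10% of tested genes fell, and with the experiment as a block Klf5 was called as well (-0.83, edgeR adjusted p = 0.0305). From 48 h to 96 h Klf2, Klf4 and Klf5 were called lower, 3 of 5 members where 9.93% of tested genes fell, with the change of Klf2 at -1.19 ± 0.35 (edgeR adjusted p = 0.0149). Klf6 was higher in that step with the experiment as a block (0.63, edgeR adjusted p = 0.0135). From 96 h to 120 h edgeR called 0 of 5 members, where 1.14% of tested genes were called in either direction, with Klf5 closest (-1.18 ± 0.32, adjusted p = 0.0535) and Klf2 next (-1.40 ± 0.40, adjusted p = 0.0682). That step depended on the fit: 4 of 5 members had an unadjusted p under 0.05, DESeq2 called 2 (Klf2 and Klf5, adjusted p = 0.0467 each), and edgeR with the experiment as a block called Klf2 (-1.38, adjusted p = 0.0192), Klf5 (-1.16, adjusted p = 0.0144) and Klf6 (-0.78, adjusted p = 0.0127). With library totals the share of calls that were higher went from 53.7% to 64.8% in the step to 96 h and from 52.4% to 66.4% in the step to 120 h. Klf4 had a mean of 13 ± 5.25 CPM at 96 h and 14.3 ± 3.65 CPM at 120 h (SD, n = 4), and 2 experiments were higher and 2 lower.

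**Figure D2:**
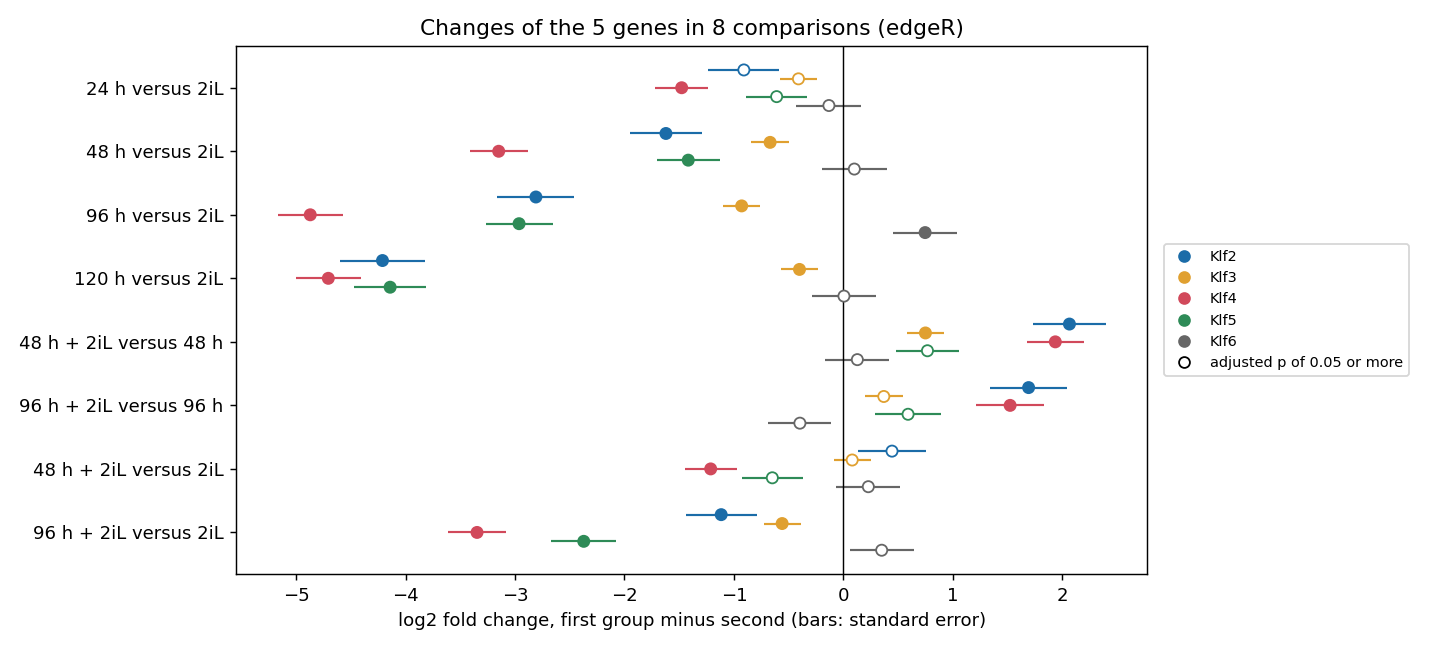
Points are log2 fold changes (first group minus second, horizontal axis) of the 5 genes in 8 comparisons (vertical axis) with standard errors as bars, 4 libraries in each group, and filled points passed an adjusted p of 0.05 (edgeR). Klf4 lies furthest left at 24, 48 and 96 h, and in 48 h + 2iL versus 48 h and 96 h + 2iL versus 96 h Klf2 and Klf4 lie furthest right.

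Setting 48 h + 2iL against 48 h, which shares libraries with the comparisons above, asks whether the factors come back when 2iL is returned. Klf2, Klf3 and Klf4 rose, 3 of 5 members where 7.24% of tested genes rose and 7.67% fell. Klf2 came back to 459.5, 458.0, 374.0 and 369.1 CPM, a rise of 2.07 ± 0.33 (edgeR adjusted p = 3.64e-05). Klf4 came back to 138.0, 172.4, 138.4 and 206.7 CPM, a rise of 1.94 ± 0.26 (edgeR adjusted p = 2.1e-06). Klf3 came back to 226.5, 224.1, 204.9 and 228.5 CPM, a rise of 0.75 ± 0.17 (edgeR adjusted p = 0.00218). For all 3 genes every library with 2iL returned lay above every 48 h library.

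Klf5 stood at 413.5, 431.9, 532.8 and 573.5 CPM after the return, also above every 48 h library, as were 4 of 5 members and 10.1% of tested genes. Its change of 0.77 ± 0.28 missed the threshold (edgeR adjusted p = 0.0654), and it passed with the experiment as a block (adjusted p = 0.0229), with only these 2 groups in the fit (adjusted p = 0.000119), without experiment 3 (adjusted p = 0.0192) and without the 48 h library of experiment 4 (adjusted p = 0.0441, a change of 0.94), all by edgeR. Klf6 stood at 176.4, 171.6, 143.0 and 115.9 CPM and overlapped 48 h. Klf2 rose by more than Klf3 by 1.31 ± 0.10 and by more than Klf5 by 1.30 ± 0.23, and Klf4 by more than Klf5 by 1.22 ± 0.22 (log2 ratios, exact permutation adjusted p = 0.0476 each), while Klf2 and Klf4 differed by 0.07 ± 0.30 (exact permutation adjusted p = 0.916).

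Set against cells that never left 2iL, the members came back to different levels. Klf2 ended above its starting level in 4 of 4 experiments, at 119.7% to 151.7% of the 2iL library of the same experiment. The libraries did not overlap, but the change of 0.44 ± 0.31 was not called (edgeR adjusted p = 0.416, 95% interval -0.19 to 1.08), and it passed with only these 2 groups in the fit (edgeR adjusted p = 0.00989). Klf3 reached 92.64% to 131.1%, with 2 experiments higher and 2 lower.

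Klf4 reached 35.93% to 51.19% of the 2iL level, and it was the 1 member of 5 that was called lower than in 2iL (-1.21 ± 0.24, edgeR adjusted p = 0.000747), where 5.49% of tested genes were lower and 6.14% higher. Klf5 reached 58.91% to 66.49%, with no overlap and a change of -0.65 ± 0.28 (edgeR adjusted p = 0.135, 95% interval -1.22 to -0.08), which passed without experiment 3 (edgeR adjusted p = 0.0308) and with only these 2 groups in the fit (edgeR adjusted p = 0.00128). Klf6 stood at 94.93% to 150.9%.

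After 96 h without 2iL the return raised Klf2 and Klf4, 2 of 5 members where 4.02% of tested genes rose and 5.23% fell. Klf2 stood at 227.9, 191.8, 25.79 and 114.8 CPM, a rise over 96 h of 1.69 ± 0.35 (edgeR adjusted p = 0.00155). Klf4 stood at 39.87, 60.23, 16.06 and 31.04 CPM, a rise of 1.52 ± 0.31 (edgeR adjusted p = 0.00129). Both genes overlapped with 96 h through experiment 3, where Klf2 was higher by 0.41 on the log2 scale and Klf4 lower by 0.21. The rise of Klf2 did not pass with only these 2 groups in the fit (edgeR adjusted p = 0.071), and without experiment 3 the rises were 1.80 for Klf2 and 2.01 for Klf4 (edgeR adjusted p = 9.08e-07 and 1.42e-05).

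Klf5 stood at 234.5, 186.0, 43.31 and 125.4 CPM in 96 h + 2iL, higher than at 96 h in 3 of 4 experiments. Its change of 0.59 ± 0.30 did not pass (edgeR adjusted p = 0.233), and without the 96 h + 2iL library of experiment 3 it was 0.90 (edgeR adjusted p = 0.0179). Klf3 stood at 121.5, 151.0, 142.1 and 152.7 CPM, with a change of 0.37 ± 0.17 (edgeR adjusted p = 0.191, or 0.0491 without experiment 3). Klf6 stood at 250.2, 201.3, 80.30 and 126.6 CPM, with a change of -0.40 ± 0.29 (edgeR adjusted p = 0.443).

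The 96 h + 2iL cells can be set beside cells of the same total time that stayed without 2iL. Against 120 h, Klf2 was higher by 3.10 ± 0.39 (edgeR adjusted p = 5.99e-06), Klf5 by 1.77 ± 0.32 (edgeR adjusted p = 0.000994) and Klf4 by 1.36 ± 0.31 (edgeR adjusted p = 0.00867), 3 of 5 members where 1.28% of tested genes were higher. Each of the 3 was higher in 4 of 4 experiments, the smallest differences being those of experiment 3. Klf3 and Klf6 were not called.

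Against 2iL the return after 96 h left 4 of 5 members lower, Klf6 being the exception, where 19.5% of tested genes were lower and 21.4% higher. Klf4 had come back to 4.17% to 14.58% of the 2iL level of the same experiment, Klf5 to 5.163% to 33.41% and Klf2 to 9.302% to 68.45%. The medians ran in the same order of Klf2, Klf5 and Klf4 as after 48 h, where the order was not tested. After 96 h, relative to 2iL, Klf2 stood above Klf5 by 1.10 ± 0.22 and Klf5 above Klf4 by 0.89 ± 0.27 (log2 ratios, exact permutation adjusted p = 0.0476 each). Klf2, Klf3, Klf4 and Klf5 were also lower than in 48 h + 2iL, by 1.56, 0.64, 2.14 and 1.72 on the log2 scale (edgeR adjusted p = 0.000538, 0.00518, 5.6e-07 and 4.88e-05), where 11.2% of tested genes were lower.

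The response itself was not shown to depend on the time away. The difference between the response after 96 h and that after 48 h was called by edgeR for 0 of 5 members, with 0 of 5 also by DESeq2 and at an unadjusted p under 0.05, where 0.921% of tested genes were called. It was -0.37 for Klf2, -0.38 for Klf3, -0.41 for Klf4, -0.18 for Klf5 and -0.52 for Klf6 on the log2 scale.

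**Figure D3:**
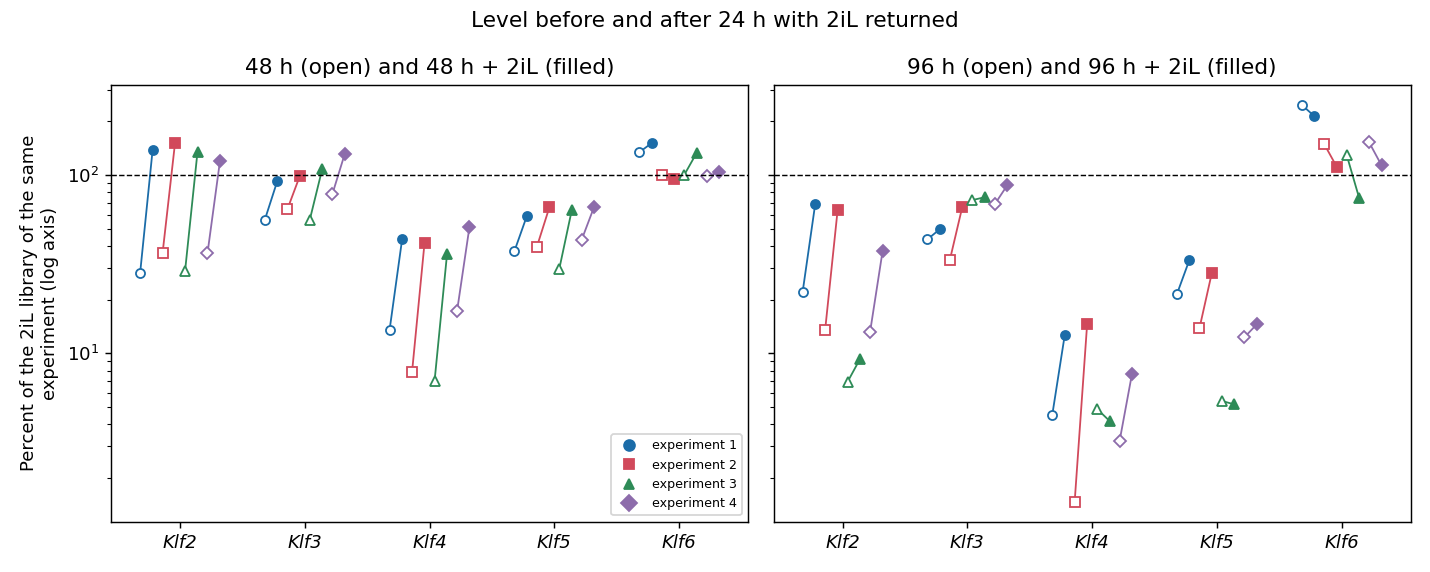
Each line joins the level before (open) and after (filled) 24 h with 2iL returned, as a percent of the 2iL library of the same experiment (log axis), for the 5 genes on the horizontal axis and the 4 experiments in colour. After 48 h Klf2 ends above the dashed 100% line in 4 of 4 experiments and Klf4 between 35.93% and 51.19%, and after 96 h experiment 3 ends lowest for Klf2, Klf4 and Klf5.

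Ordered by mean level over the 7 groups, Klf2 was highest in 48 h + 2iL (415 ± 50.4 CPM, SD, n = 4) and lowest at 120 h (16.2 ± 6.76 CPM), and of the 6 steps between neighbours the step from 48 h to 96 h passed. Klf4 was highest in 2iL (380 ± 43.4 CPM), and its neighbours differed between 2iL and 48 h + 2iL, between 24 h and 48 h, and between 96 h + 2iL and 120 h. Klf5 was highest in 2iL (765 ± 101 CPM), and of its neighbours 48 h and 96 h + 2iL differed. Klf3 ran from 221 ± 10.9 CPM in 48 h + 2iL to 110 ± 25.7 CPM at 96 h, where the neighbours 2iL and 120 h differed. Klf6 ran from 218 ± 73.2 CPM at 96 h to 118 ± 14.5 CPM at 24 h, with 0 of 6 neighbouring steps called by edgeR, nor any at an unadjusted p under 0.05.

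The genes whose log2 level ran most like that of each member over the 28 libraries were taken among 8974 genes, and the libraries of a group share their condition. For Klf2 they were Esrrb (Pearson r = 0.95), a nuclear receptor of the naive network, then Triml1, Nr5a2, Bcl3 and Klf8 (r = 0.93). For Klf4 they included Ulk1 (r = 0.97), a kinase that starts autophagy, Mylpf, Alpl and Tbx3 (r = 0.95), and for Klf5 they were Zfp42 (r = 0.97), known as Rex1, then Agtrap, Laptm5, Triml1 and Fbxo15 (r = 0.96). For Klf3 the closest was Epop (r = 0.82) and for Klf6 Ap1m2 (r = 0.78), so neither had as close a match. Between members r was 0.92 for Klf2 and Klf5, 0.90 for Klf4 and Klf5 and 0.86 for Klf2 and Klf4.

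The rest of the family did not move as 1 block. Of 22 other Kruppel-like and SP genes 21 were in the table and 16 had enough counts to be tested. At 24 h 0 rose and 2 fell, at 48 h 1 and 2, at 96 h 2 and 5, and at 120 h 4 and 6. The shares of all tested genes given above, from 7.68% to 24.6% higher and from 8.29% to 22.6% lower over these times, are close to several of these counts. The median change of the 16 was 0.02 at 24 h and -0.42 at 120 h, beside 0.01 over all tested genes at both times.

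Klf8, a repressor that binds CtBP like Klf3, was the family gene that ran with Klf2: it fell by 1.23, 2.17, 2.72 and 4.03 on the log2 scale at 24, 48, 96 and 120 h and rose by 1.60 in 48 h + 2iL over 48 h. Its mean was 43.6 ± 6.17 CPM in 2iL, 2.596 ± 1.15 CPM at 120 h and 29.3 ± 2.72 CPM in 48 h + 2iL (SD, n = 4). Klf7, a factor known from neurons, was the mirror image at 48 h, at 25.6 ± 6.44 CPM in 2iL, 87.5 ± 20.2 CPM at 48 h and 31.1 ± 4.45 CPM in 48 h + 2iL (SD, n = 4). It rose by 1.78 at 48 h and fell by 1.49 when 2iL was returned (log2 fold changes). Klf9, a factor induced by steroid hormones, fell late, by 1.07 at 96 h and 2.04 at 120 h.

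Among the SP genes Sp5, a direct target of WNT signalling, went from 114 ± 18.4 CPM in 2iL to 2.39 ± 2.39 CPM at 24 h and 173 ± 43.4 CPM in 48 h + 2iL (SD, n = 4). Its change was -5.57 at 24 h and 6.54 on return after 48 h on the log2 scale, larger than that of any of the 5 members in the same comparisons. Sp8 had 4 counts over the 4 libraries in 2iL, 1 at 48 h, 42 in 48 h + 2iL and 159 at 120 h. It was thus higher both late without 2iL and on return after 48 h, which has no group of the same total time. On return after 96 h its mean was 8.513 CPM, against 7.981 CPM at 96 h and 17.6 CPM at 120 h. The widely expressed Sp1 fell by 0.37 at 96 h and 0.41 at 120 h.

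**Figure D4:**
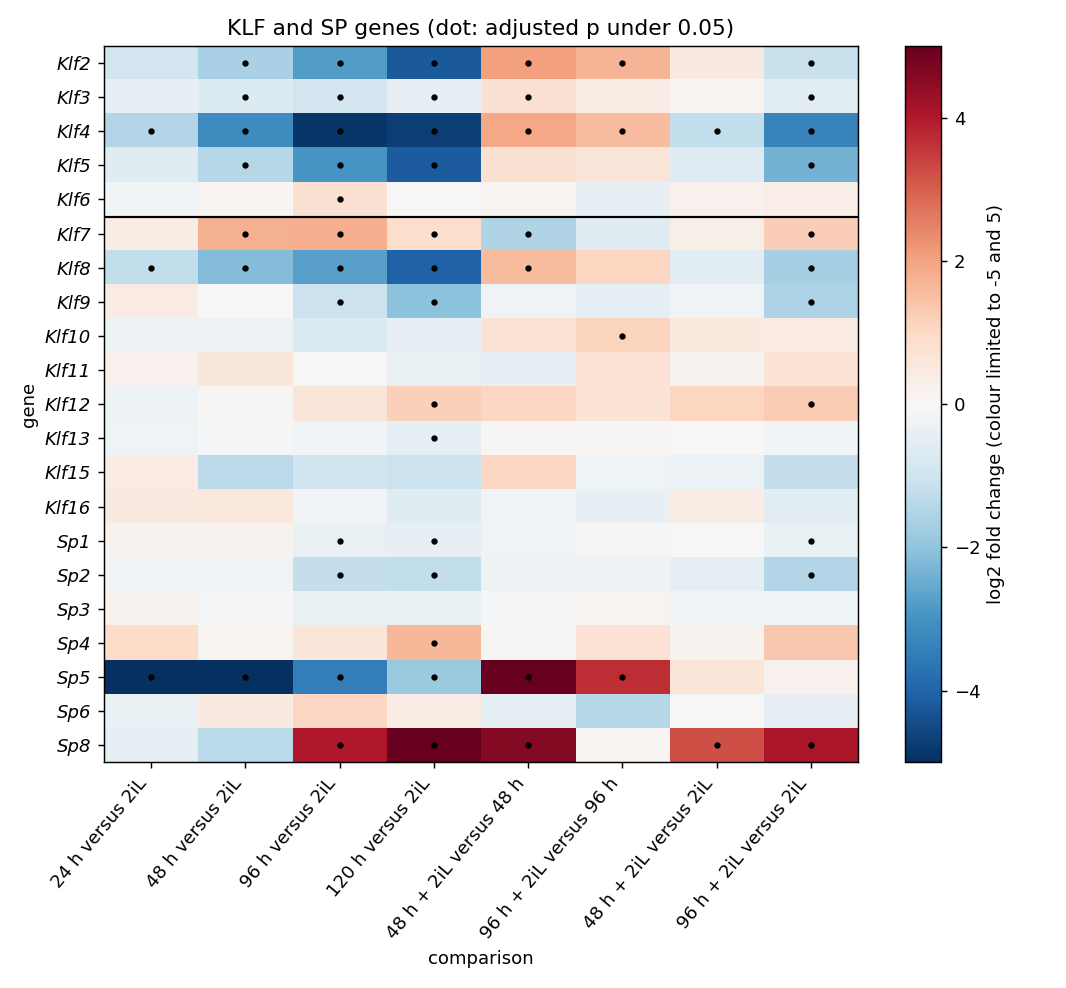
Colour gives the log2 fold change of the 5 members (above the line) and of 16 other Kruppel-like and SP genes (rows) in 8 comparisons (columns), limited to -5 and 5, and dots mark an adjusted p under 0.05 (edgeR). Klf8 is low at all 4 times without 2iL, like Klf2, Klf4 and Klf5 above the line, whereas Klf7 is high at 48 and 96 h and Sp8 is high at 96 and 120 h and in 48 h + 2iL.

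Of the 14 naive network genes fixed for this work beside the members, 3 rose and 7 fell at 24 h, 2 and 11 at 48 h, 1 and 11 at 96 h, and 0 and 11 at 120 h, where 7.68%, 14.6%, 21.9% and 24.6% of all tested genes rose and 8.29%, 13.2%, 19.2% and 22.6% fell. Their median change was -0.96 at 24 h and -4.99 at 120 h, beside 0.01 over all tested genes at both times. Tfcp2l1, a naive transcription factor tied to LIF signalling, fell by 3.06 at 24 h, Nanog by 1.98 and Esrrb by 0.98, which puts the drop of Klf4 (1.48) among them. On return after 48 h 9 rose and 1 fell, Tfcp2l1 by 4.34 and Nanog by 3.15, and after 96 h 5 rose and 2 fell (log2 fold changes), where 7.24% and 4.02% of all tested genes rose and 7.67% and 5.23% fell. Tbx3 and Tcl1 were the 2 of 14 still lower than in 2iL in 48 h + 2iL, where 5.49% of all tested genes were lower. Their changes were -1.50 and -2.11, beside -1.21 for Klf4. Of 10 formative epiblast genes, which mark the state after the naive one, 7 rose at 24 h and 10 at 48 h with 0 falling. Of all tested genes 7.68% and 14.6% rose at those times and 8.29% and 13.2% fell. On return after 48 h 8 fell and 0 rose, where 7.67% of all tested genes fell and 7.24% rose. Against 2iL 5 of the 10 were higher in 48 h + 2iL and 7 in 96 h + 2iL, where 6.14% and 21.4% of all tested genes were higher.

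Of the 12 tested LIF and STAT3 genes, 3 fell at 24 h, 8 at 48 h, 9 at 96 h and 9 at 120 h, where 8.29%, 13.2%, 19.2% and 22.6% of all tested genes fell. At the same times 0, 0, 1 and 2 rose, where 7.68%, 14.6%, 21.9% and 24.6% of all tested genes rose. The median change of the list was -0.11 at 24 h and -1.85 at 120 h. The receptor subunit gene Il6st fell by 1.17 at 24 h, whereas Lifr, the LIF receptor, fell by 2.36 at 96 h and 3.19 at 120 h. Stat3 itself fell by 0.91 at 48 h and 2.77 at 120 h and rose by 0.75 and 1.12 on return after 48 and 96 h. Lifr had a change of -0.34 on both returns, which was not called. Bcl3, Pim1 and Stat3, 3 of 12 genes, rose on each return, where 7.24% and 4.02% of all tested genes rose.

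PD0325901 blocks the pathway that leads to ERK. Of 12 tested ERK feedback genes 5 rose and 2 fell at 24 h, where 7.68% of all tested genes rose and 8.29% fell. On return 0 rose and 5 fell after 48 h, where 7.24% rose and 7.67% fell, and 0 rose and 6 fell after 96 h, where 4.02% rose and 5.23% fell. Dusp6, a phosphatase that turns ERK off, rose by 1.62 at 24 h and fell by 2.49 and 2.87 on the 2 returns. The immediate early genes Fos and Egr1 were the 2 that fell at 24 h, by 4.45 and 3.88. Their 2iL libraries were widely spread, from 1.449 to 27.9 CPM for Fos and from 1.449 to 186.3 CPM for Egr1. At 24 h Fos ran from 0 to 0.6911 CPM and Egr1 from 2.357 to 7.603 CPM, so the libraries of Egr1 overlapped.

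Of 11 tested WNT feedback genes, 2 rose and 4 fell at 24 h, where 7.68% of all tested genes rose and 8.29% fell. On return 4 rose and 0 fell after 48 h, where 7.24% rose and 7.67% fell, and 7 rose and 1 fell after 96 h, where 4.02% rose and 5.23% fell. Axin2, a scaffold of the complex that degrades beta-catenin, fell by 3.17 at 24 h and rose by 3.74 and 2.09 on the 2 returns. Nkd1, another inhibitor induced by the pathway, rose by 4.56 at 120 h and also by 2.86 on return after 48 h (log2 fold changes).

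Of 14 cofactor and protein turnover genes of Kruppel-like factors, 1 rose and 0 fell at 24 h, and 2 and 1 at 48 h. At 96 h 3 rose and 1 fell, and at 120 h 2 rose and 1 fell. Over those times 7.68%, 14.6%, 21.9% and 24.6% of all tested genes rose and 8.29%, 13.2%, 19.2% and 22.6% fell. The counts of this list without 2iL were thus near or below those shares. On return 1 rose and 1 fell after 48 h, where 7.24% rose and 7.67% fell. After 96 h 1 rose and 1 fell, where 4.02% rose and 5.23% fell. Ctbp1 and Ctbp2, the corepressors that Klf3 recruits, rose without 2iL: Ctbp1 by 0.67, 0.96 and 1.22 at 48, 96 and 120 h, and Ctbp2 by 0.94, 1.03 and 0.81 at 24, 48 and 96 h. Ctbp2 fell by 0.64 and 1.00 on the 2 returns. Kat2b, an acetyltransferase known as PCAF, fell by 2.14 at 96 h and 3.05 at 120 h, whereas Ep300 and Crebbp, the acetyltransferases that act with Klf4, had changes of -0.09 and -0.15 at 120 h and were not called. Wwp1, a ubiquitin ligase of Klf2 and Klf5 protein, rose by 0.80 on return after 48 h (log2 fold changes).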

How the data were processed

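RNA of 28 libraries was measured by 3′ digital gene expression sequencing. Per the submitters' processing notes, the authors used bcl2fastq, STAR 2.6.0a, HTSeq and mm10, with no role or order given. Raw counts of 31053 genes were deposited for every library. Whether the counts are of reads or of molecular identifiers is not given in the sources used here, and summary lines, among them alignments at several places (52.3% to 60.1% of the reads listed), were left out. The authors' deposited table holds CPM, which equalled the CPM of the counts in 28 of 28 columns within 1e-06.

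Groups and experiment numbers come from the titles. Genes were filtered with edgeR's filterByExpr (10 counts, 15 in total), which left 11080, and scaled by TMM, and 1 quasi-likelihood model of 7 group means was fitted to all libraries (edgeR 4.0.16, R 4.3.3). Tests are two-sided, with Benjamini-Hochberg adjustment over all tested genes within each comparison and a threshold of 0.05. "Rose", "fell" and "called" mean an adjusted p under it. The standard error is the change divided by the square root of F. Ratios between members had 0.5 counts added. Likeness used log2(CPM + 1) and genes with a group mean of at least 10 CPM, 5 genes for each member, without Gm, Rik and mt- symbols, and 1 of them is not reported here. Named genes are the members, genes of the fixed lists and those most alike. The script was tested on simulated counts. The members and lists were chosen with earlier results of these data known.

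Titles name the number as an experiment, so it was read as pairing. Deviations from the group means correlated on average at 0.102, 0.0848, 0.113 and 0.0466 within experiments 1 to 4 and between -0.0946 and 0.0554 across them. The chi-square per gene between replicates was 2.39 to 10.8 over 42 pairs, so no library was counted as a copy. Alternatives were library totals, median-ratio scaling, DESeq2 1.42.0, no filter, a replicate block, a fit of only the groups compared, leaving out each library and, chosen after seeing the data, leaving out experiment 3.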

Additional observations from a re-analysis of the deposited data

Results flagged for a closer look

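Within the groups of 4 libraries, 3 of 35 groups of member values held a library far from the other 3 by Dixon's criterion, and chance alone picks about 1 group in 20. Klf4 at 120 h was at 19.77 CPM in experiment 1 and at 12.16 to 12.95 CPM in the others. Klf5 at 48 h was at 374.7 CPM in experiment 4 and at 249.7 to 262.3 CPM in the others, and leaving that library out brought the return after 48 h past the threshold. Klf6 in 2iL was at 180.7 CPM in experiment 2 and at 107.8 to 116.9 CPM in the others, which is the library that overlapped with 96 h.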

How the results depend on the processing

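Of 45 results (5 members in 9 comparisons) 29 kept their direction and their side of the threshold in every alternative run, among them all changes of Klf4 except its difference between responses, which turned to 0.16 without experiment 3. Over 715 recomputed values 661 were unchanged in this sense, 17 lost a call, 25 gained 1 and 12 changed sign. The cause was not tested for any of them.

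Library totals gave Klf2 -0.96 at 24 h and Klf5 0.81 in 48 h + 2iL over 48 h, both then called, and Klf3 -0.27 at 120 h, no longer called, and turned 2 uncalled differences (Klf5 between 48 h + 2iL and 24 h, 0.028, and Klf6 between 120 h and 48 h, 0.044). Median-ratio scaling gave Klf2 -0.91 at 24 h, called, and Klf3 -0.38 at 120 h, not called. DESeq2 called neither Klf6 at 96 h (0.74) nor Klf3 at 120 h (-0.38). With no filter these were called: Klf2 -0.93, Klf3 -0.43 and Klf5 -0.63 at 24 h, Klf2 0.45 and Klf5 -0.64 in 48 h + 2iL over 2iL, and Klf5 0.81 and 0.60 on return after 48 and 96 h, while Klf6 at 120 h was -0.0047. With only the groups compared these were called: Klf2 -0.91 and Klf5 -0.61 at 24 h, Klf5 0.78 on return after 48 h, and Klf2 0.45 and Klf5 -0.64 in 48 h + 2iL over 2iL, while Klf3 at 120 h (-0.40) and Klf2 on return after 96 h (1.68) were not. The replicate block gave Klf2 -0.88 at 24 h and Klf5 0.79 on return after 48 h, both called, turned Klf6 at 120 h (-0.074) and Klf3 between 120 h and 24 h (-6.3e-05), and, beside the steps between successive times given above, changed no other call of a member. Genes called for the difference between responses numbered 102, 194 with the replicate block and 321 with no filter. With 1 count added, Klf2 against Klf4 on return after 96 h was 0.01.

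Leaving out a library, or experiment 3 as a whole, gave these ranges: at 24 h Klf2 -1.06 to -0.83, Klf5 -0.68 to -0.55 and Klf6 -0.27 to 0.074; at 48 h Klf6 -0.063 to 0.29; at 96 h Klf6 0.59 to 0.94; at 120 h Klf3 -0.66 to -0.27 and Klf6 -0.31 to 0.25. In 48 h + 2iL over 2iL Klf5 ranged from -0.73 to -0.57, on return after 48 h from 0.67 to 0.94 and after 96 h from 0.29 to 0.90, and Klf3 after 96 h from 0.23 to 0.50. The difference between responses ranged from -0.78 to 0.16 for Klf4 and from -0.49 to 0.13 for Klf5. Genes called numbered 49 to 136 for that difference, 658 to 1323 on return after 96 h (1024 with all libraries, 658 without the 96 h library of experiment 2) and 759 to 1266 in 48 h + 2iL over 2iL (1288 with all, 759 without the 48 h + 2iL library of experiment 3).

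The spread was pooled over all 28 libraries, and depth limits Klf4 most, with as few as 15 counts in a library. RNA level says nothing of protein, and 3′ reads do not tell isoforms apart.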

Other observations

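Within groups, libraries that were high in 1 member tended to be high in another. Deviations from the group means correlated at 0.88 between Klf2 and Klf5, 0.76 between Klf2 and Klf6 and 0.64 between Klf5 and Klf6, but at -0.47 between Klf3 and Klf6 and -0.34 between Klf3 and Klf5 (Pearson r over 28 libraries, a description). Klf2 and Klf6 thus deviated together when all groups were pooled, while over all libraries, groups included, their r was 0.18. The SD of Klf2 was 64% of the mean in 96 h + 2iL and 51.8% at 96 h, against 7.49% in 2iL, so groups weigh unequally in the pooled r. In 2iL Klf2 was highest in experiment 1 (332.9 CPM) and Klf6 in experiment 2 (180.7 CPM). In 96 h + 2iL the order of the libraries by Klf2, 227.9, 191.8, 114.8 and 25.79 CPM in experiments 1, 2, 4 and 3, was the reverse of that by the summed neural progenitor markers, at 160.9, 224.4, 461.2 and 794.8 CPM. The order was not an exact reverse at 96 h, where Klf2 was highest in experiment 1 (73.86 CPM) and the neural sum lowest in experiment 2 (82.06 CPM). Nor was it at 120 h, where Klf2 was lowest in experiment 4 (9.823 CPM) and the neural sum highest in experiment 3 (625.5 CPM). Klf4 in 96 h + 2iL was highest in experiment 2 (60.23 CPM), not in experiment 1. The part of such cells in the level of Klf2 was not tested.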
